A study of Mus musculus with 4 samples.

Results

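A set of 62 genes was at or near 0 in one of 2 lines of mouse macrophages and clearly measured in the other, out of 55356 genes in the table. Membership came from the normalized counts of all 4 libraries: a gene did not exceed 5 in either library of its silent line and reached at least 50 in each library of the other. The set comprised 53 genes silent in the line without MK2 and 9 genes silent in the line with MK2. "Silent" is used here only for a value within that limit. A further 4 and 2 genes met the limits but were left out by name or by the start of their symbol. The difference between the lines chose the genes, so it is given below as a description with no test.

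Macrophages derived from the bone marrow of *MK2*-KO mice had been immortalized, and one population was transduced with the empty vector pMMP-IRES-GFP (i*MK2*-KO +*GFP*) and another with *MK2* (i*MK2*-KO +*MK2*), after which GFP-positive cells were sorted. Both lines thus come from *MK2*-KO cells, and the labels call the +*MK2* cells wt. Each line is a single transduced population. Each line was sequenced once untreated and once after 5 ng/mL IL-1α for 1 h, with 1 library for each of the 4 conditions and no replicate. Any property in which these populations differ, MK2 among them, cannot be told apart from the line itself, and the spread between cultures is unknown.

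MK2 is a protein kinase activated by p38 that controls the stability and translation of cytokine mRNAs in macrophages. IL-1α is a cytokine that activates NF-κB and p38 signaling through its receptor. A gene can be off in one cell population and on in a closely related one in several known ways, among them loss of the DNA, methylation of CpG dinucleotides in its promoter, repressive chromatin marks, or a missing transcription factor. RNA levels alone do not distinguish these. In bulk RNA, fewer cells that transcribe a gene and less RNA per cell cannot be told apart.

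The libraries summed to between 24891906 and 25733071 normalized counts, and between 17840 and 18152 genes were above 0 in each. *Mapkapk2*, the gene of MK2, was at 561 and 1585 in untreated and IL-1α-treated +*GFP* cells and at 38357 and 38141 in +*MK2* cells, the order that the labels give. Reads assigned to the gene were thus present in +*GFP* cells as well, and which part of the gene they cover is not in the table. All 10 macrophage markers (such as *Csf1r*, *Adgre1* and *Spi1*) were expressed in both lines, and 1 of them, *Mertk*, was at least 2-fold lower in +*GFP* cells untreated and after IL-1α, where 4.87% of all 10651 expressed genes differed so in either direction (3.04% lower and 1.83% higher). The summed levels of the marker lists of fibroblasts, B cells, T and NK cells, mast cells and epithelial cells were between 0 and 2 in every library, and the neutrophil list was between 5 and 8. Of the dendritic cell list, *Cd74* was at 6809, 8187, 2753 and 3047 and *Zbtb46* at 23, 18, 104 and 115 (here and below in the order +*GFP* untreated, +*GFP* with IL-1α, +*MK2* untreated, +*MK2* with IL-1α). The rest of that list, *H2-Ab1*, *Xcr1*, *Flt3*, *Siglech* and *Ccr7*, was between 0 and 3 in every library. From the erythroid and megakaryocyte list, *Pf4*, a chemokine also made by macrophages, was at 104, 113, 1784 and 1717, while the list as a whole summed to between 110 and 1796. Their part in the differences described below was not tested.

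The 2 directions were of unequal size. Of the 10487 genes at 50 or more in both +*MK2* libraries, 57 were at 5 or less in both +*GFP* libraries (0.544%), which includes the 4 left out by name. Of the 10298 genes at 50 or more in both +*GFP* libraries, 11 were at 5 or less in both +*MK2* libraries (0.107%), with the 2 left out. In the silent line, 23 of the 53 +*GFP*-silent genes and 1 of the 9 +*MK2*-silent genes were at 0 in both libraries. At 2 or less in both were 39 and 3. In the expressing line, the mean of both libraries had a median of 145.5 normalized counts for the 53 genes (range 51.5 to 1956) and of 102 for the 9 genes (range 54.5 to 303.5). These are low levels for the cells: per kb of exon, the median of the 53 genes was 29.1 against 220.5 for all genes expressed in +*MK2* cells, and 19.47 for 8 of the 9 genes against 227.4 in +*GFP* cells.

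**Figure D1:**
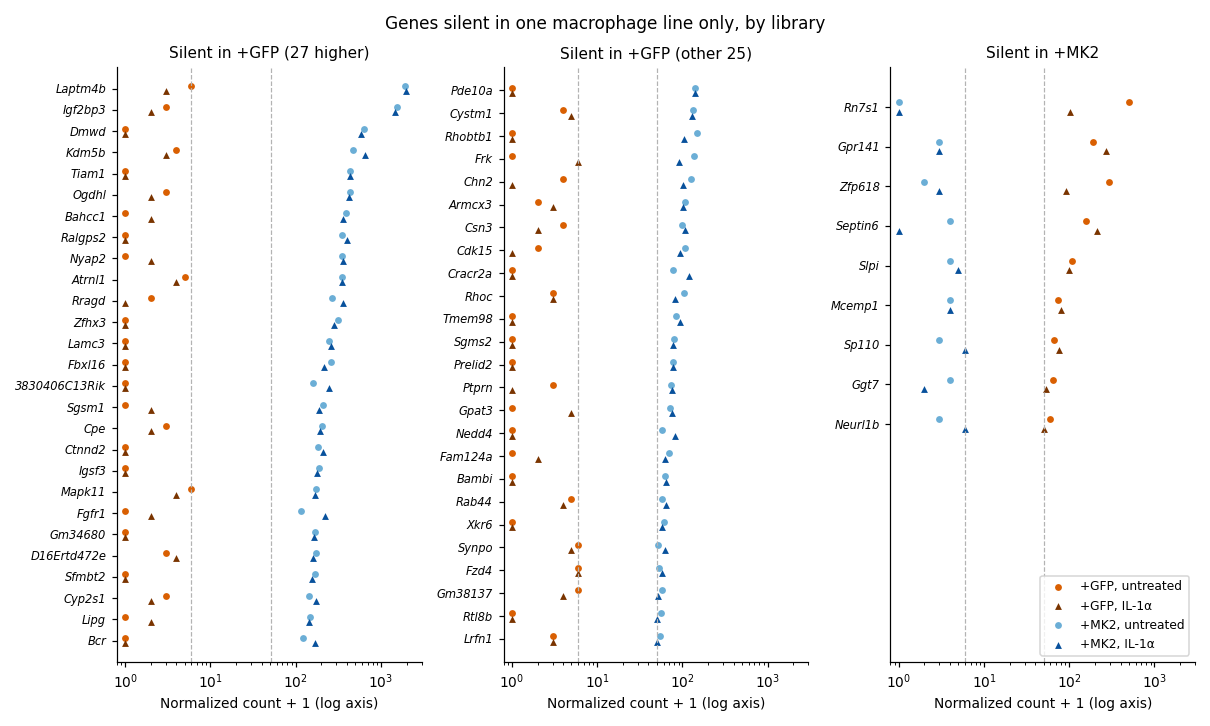
Normalized count plus 1 (log axis) of 61 of the 62 genes in the 4 libraries, with +GFP libraries in orange and brown, +MK2 libraries in blue, circles for untreated and triangles for IL-1α-treated cells, and dashed lines at the limits of 5 and 50. By the rule, both libraries of a line lie on the same side of the limits. Only Laptm4b, Igf2bp3, Dmwd and Kdm5b have a mean above 500 in the expressing line.

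The limits separate some genes whose values are not far apart. Just inside the silent limit were *Fzd4* (5, 5, 52 and 57), *Synpo* (5, 4, 51 and 62) and *Mapk11* (5, 3, 172 and 166), and just outside it were *Adam3* (6, 6, 155 and 124), *Nckap1* (6, 2, 111 and 107) and *Pou4f1* (6, 1, 90 and 77). Just inside the expressed limit were *Lrfn1* (2, 2, 53 and 50), *Rtl8b* (0, 0, 55 and 50) and *Gm38137* (5, 3, 57 and 51), and just outside were *Six5* (0, 0, 47 and 51), *Lmbr1* (0, 0, 44 and 73) and *Drd1* (0, 0, 45 and 41). On the side silent in +*MK2* cells, *Sp110*, *Neurl1b*, *Slpi* and *Ggt7* lay just inside one of the limits, and *4930455G09Rik* (56, 59, 2 and 6), *Gm39458* (76, 59, 5 and 6), *Mical1* (68, 74, 6 and 5), *St14* (47, 85, 1 and 1), *Esr1* (44, 55, 4 and 2) and *Adamts6* (61, 38, 4 and 5) just outside.

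By function, the largest named groups among the 53 +*GFP*-silent genes were 9 genes of small GTPases and their regulators and 9 genes of kinases, receptors and second messengers. Small GTPases are molecular switches that are turned on by exchange factors and off by GTPase-activating proteins, and in macrophages they set cell shape, migration, phagocytosis and vesicle traffic. *Tiam1*, an exchange factor that activates Rac, was at 0 and 0 in +*GFP* cells and at 431 and 434 in +*MK2* cells. *Ralgps2*, an exchange factor of the Ral GTPases, was at 0, 0, 346 and 398. *Rragd*, a Rag GTPase that helps to bring mTORC1 to the lysosome, was at 1, 0, 264 and 358. For all of these the +*GFP* libraries hold at most a single normalized count. *Sgsm1*, a regulator of Rap and Rab GTPases, was at 0, 1, 206 and 189. *Bcr*, which has both exchange factor and GTPase-activating domains and is known as the fusion partner of ABL1 in leukaemia, was at 0, 0, 122 and 168. *Rhobtb1*, an atypical small GTPase, stood at 0, 0, 149 and 102. The other 3 genes of the group were *Chn2* (a Rac GTPase-activating protein), *Rhoc* (a GTPase of cell motility) and *Rab44*, with means in +*MK2* cells between 60.5 and 112.5.

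Among kinases, receptors and second messengers, *Nyap2*, an adaptor that binds phosphoinositide 3-kinase, was at 0, 1, 352 and 359. *Mapk11*, which encodes p38β, was at 5, 3, 172 and 166. Of the p38 kinases, p38α and p38β are the activators of MK2. The main family member *Mapk14* (p38α) was at 3545, 3515, 3093 and 3031, with log2 ratios of +*GFP* over +*MK2* cells of 0.20 and 0.21. *Fgfr1*, a receptor of fibroblast growth factors, was at 0, 1, 116 and 219. *Pde10a*, a phosphodiesterase that breaks down cAMP and cGMP, was at 0 and 0 in +*GFP* cells and at 141 and 141 in +*MK2* cells, the same value with and without IL-1α. The other members were *Frk* (a kinase related to Src), *Cdk15* (a cyclin-dependent kinase), *Cracr2a* (a regulator of calcium entry), *Bambi* (a pseudoreceptor that dampens TGF-β signaling) and *Fzd4* (a Wnt receptor), with means in +*MK2* cells between 54.5 and 114. Of *Bambi* there is a related pseudogene, *Bambi-ps1*, and their summed values were 9, 18, 67 and 68, so the near-absence in +*GFP* cells holds for the counts assigned to *Bambi* itself.

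Chromatin and transcription held 4 genes silent in +*GFP* cells. *Kdm5b*, a demethylase that removes methyl groups from lysine 4 of histone H3, was at 3, 2, 464 and 656. *Bahcc1*, a chromatin protein that reads a repressive methyl mark of histone H3, was at 0, 1, 386 and 358. *Zfhx3*, a transcription factor with homeodomains and zinc fingers, was at 0, 0, 312 and 283. The last of them, *Sfmbt2*, a relative of Polycomb group proteins, was at 0, 0, 170 and 154. Thus 3 of the 4 were at 1 or less in both +*GFP* libraries. In the opposite direction, *Zfp618*, a zinc finger protein, was at 292, 91, 1 and 2, and *Sp110*, a nuclear body protein inducible by interferon, at 66, 74, 2 and 5.

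The group of RNA binding and non-coding RNA contained a gene that was high within this set and several others. *Igf2bp3* (chr6:49062157-49191891, minus strand, protein-coding), an RNA-binding protein of embryonic tissues and tumours that stabilizes bound mRNAs, was at 2 and 1 in +*GFP* cells and at 1559 and 1461 in +*MK2* cells. *Gm34680*, a long non-coding RNA on chromosome 16, was at 0, 0, 167 and 162. *Gm38137* is an unspliced transcript model of chromosome 1 near the lower limit. *Rn7s1*, a copy of the 7SL RNA of the signal recognition particle, was at 507, 100, 0 and 0. Its near-identical copy *Rn7s2* was at 148, 0, 88 and 71, and the sum of both was 655, 100, 88 and 71. The assignment of reads to these copies is uncertain, and over both copies the RNA was not silent in +*MK2* cells. 7SL lacks a natural poly(A) tail, and so does *Rn7sk*, which was at 132, 25, 8 and 0. Both were highest in the untreated +*GFP* library. The sample labels give a poly(A) selection and the study's methods a ribosomal RNA depletion for these libraries.

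*Laptm4b* (chr15:34238174-34284448, plus strand, protein-coding), a membrane protein of late endosomes and lysosomes, had the highest value of the set, with 5 and 2 in +*GFP* cells against 1939 and 1974 in +*MK2* cells. Its relative *Laptm4a* was at 2625, 2625, 2350 and 2304, log2 ratios of 0.16 and 0.19. In the same group of lysosomal, vesicular and secreted proteins, *Cpe* (carboxypeptidase E, which trims prohormones) was at 2, 1, 202 and 191. *Csn3* (κ-casein, a milk protein) and *Ptprn* (a secretory granule protein of endocrine cells) were at 102 and 73.5 on average in +*MK2* cells. Several of these products are best known from glands or endocrine cells. *Slpi*, a secreted inhibitor of neutrophil proteases that macrophages make, was the opposite case, at 106, 98, 3 and 4.

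Metabolic enzymes were represented by 6 genes. *Ogdhl*, a relative of the citric acid cycle enzyme oxoglutarate dehydrogenase, was at 2, 1, 438 and 421, while *Ogdh* itself was at 6774, 7282, 6173 and 6292. *Cyp2s1*, a cytochrome P450, was at 2, 1, 143 and 173. *Lipg*, endothelial lipase, was at 0, 1, 147 and 144. The remaining *Sgms2* (a sphingomyelin synthase), *Prelid2* and *Gpat3* (a glycerol-3-phosphate acyltransferase) had means between 73 and 77.5 in +*MK2* cells. *Ggt7*, of the γ-glutamyltransferase family, was silent in +*MK2* cells instead, at 63, 52, 3 and 1.

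For adhesion, matrix and cytoskeleton, *Lamc3* (a laminin γ chain) was at 0, 0, 246 and 257. *Ctnnd2* (δ-catenin, of cell junctions) was at 0, 0, 184 and 209. *Igsf3*, an immunoglobulin superfamily membrane protein, was at 0, 0, 188 and 176. All 3 were at 0 in both +*GFP* libraries, and *Synpo* (synaptopodin, which binds actin) and *Lrfn1* (a synaptic adhesion molecule) lay near the limits given above. *Septin6*, a filament-forming GTP-binding protein of the cytoskeleton, was silent in +*MK2* cells, at 157, 208, 3 and 0. Of ubiquitin ligase subunits, *Fbxl16* was at 0, 0, 258 and 214 and *Nedd4* had a mean of 68.5 in +*MK2* cells, while *Neurl1b*, a ligase of Notch ligands, was at 59, 50, 2 and 5.

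The last 10 +*GFP*-silent genes have other or little-known functions. *Dmwd*, a WD-repeat gene beside the myotonic dystrophy kinase gene, was at 0 and 0 in +*GFP* cells and at 633 and 585 in +*MK2* cells. *Atrnl1* (attractin-like) was at 4, 3, 353 and 351. *3830406C13Rik* was at 0, 0, 159 and 248, *D16Ertd472e* at 2, 3, 171 and 157, and *Cystm1* at 3, 4, 132 and 127. *Armcx3*, *Tmem98*, *Fam124a*, *Xkr6* and *Rtl8b* had means between 52.5 and 103. *Mcemp1*, a membrane protein of mast cells and other myeloid cells, was silent in +*MK2* cells, at 73, 80, 3 and 3. *Gpr141*, an orphan G protein-coupled receptor, was the highest protein-coding gene of that direction after IL-1α, at 187, 266, 2 and 2.

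Relatives were listed for some members only, after their names were seen. How often other genes have a relative expressed in a given line was not counted, so the counts describe the listed members only. For 35 members a gene of the same family was in the table, 73 relatives in all, and 26 members had a relative at 50 or more in both libraries of the line where the member was silent. Of these 35 expressed relatives, 1 differed at least 2-fold between the lines in the same direction untreated and after IL-1α, while 4.32% of the 10589 expressed genes outside the set did. The other relatives were below 50 in at least 1 of those libraries, many of them at 0 throughout. The median log2 ratio of +*GFP* over +*MK2* was 0.00 untreated and 0.03 after IL-1α. The 1 exception was *Rragb*, which encodes RagB, a partner of the RagD protein, at 532, 471, 195 and 192 (log2 ratios 1.44 and 1.29), higher where *Rragd* was silent. *Igf2bp2* was at 1616, 1722, 2369 and 2239, *Abr*, the relative of *Bcr*, at 6147, 6007, 6394 and 6338, and *Kdm5c* at 4691, 5103, 3834 and 4178. Without such an expressed relative were, for example, *Fgfr1*, whose relatives *Fgfr2*, *Fgfr3* and *Fgfr4* were at 0 in all libraries, and *Tiam1*, with *Tiam2* at 21, 13, 19 and 20.

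The response to IL-1α within the expressing line was a measure that the rule used only through its minimum of 50. Of the 53 genes expressed in +*MK2* cells, 23 were higher after IL-1α, 29 lower and 1 equal. Their log2 ratios (with a pseudocount of 1) had a median of -0.03 against 0.01 for all genes expressed in that line. None of the 53 was at least 2-fold higher or lower, as against 0.0858% and 0.0954% of all expressed genes. With 1 normalized count taken as 1 read, 6 of the 53 (11.3%) were higher and 3 (5.66%) lower beyond counting error, meaning that the exact Clopper-Pearson 95% interval of the ratio left out 0. The same shares over all genes expressed in +*MK2* cells were 12.6% and 8.67%, and 7.76% and 7.84% over those at a like level. Variation between cultures is not covered by these intervals.

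*Fgfr1* had the highest ratio, with 116 untreated and 219 after IL-1α (log2 ratio 0.91, interval 0.59 to 1.25). The others beyond counting error were *Cracr2a* (0.65), *3830406C13Rik* (0.64), *Kdm5b* (0.50), *Bcr* (0.46) and *Rragd* (0.44), all higher, and *Frk* (-0.58), *Rhobtb1* (-0.54) and *Fbxl16* (-0.27), all lower. In +*GFP* cells the 9 expressed genes spread more widely. *Rn7s1* went from 507 to 100 (log2 ratio -2.33, interval -2.67 to -2.03) and *Zfp618* from 292 to 91 (-1.67, interval -2.04 to -1.34), which makes 2 of 9 at least 2-fold lower, against 0.175% of all genes expressed in that line, and none at least 2-fold higher, against 1.01%. The read assignment of *Rn7s1* is uncertain, as given above. *Rn7sk*, which also lacks a poly(A) tail, went from 132 to 25 in the same libraries. For such RNAs, IL-1α and a difference between the libraries cannot be told apart here. *Gpr141* (0.51) and *Septin6* (0.40) were higher beyond counting error, 2 of 9 against 22.6% of all, and 13.2% of all were lower by that measure.

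**Figure D2:**
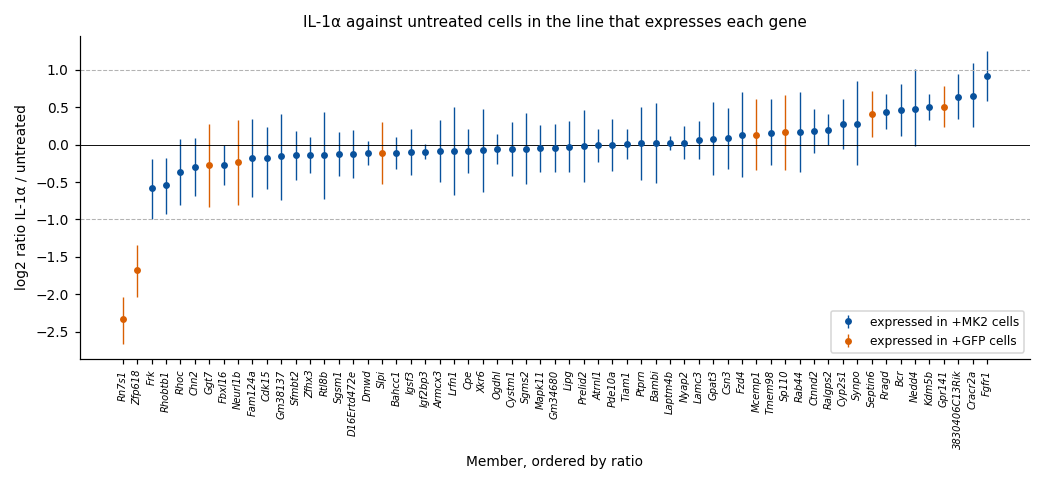
log2 ratio of IL-1α-treated over untreated cells (vertical axis) in the line that expresses each of 61 of the 62 genes, ordered by ratio, with exact Clopper-Pearson 95% counting intervals as bars and dashed lines at a 2-fold difference. Only Rn7s1 and Zfp618, expressed in +GFP cells, lie beyond a 2-fold difference, and Fgfr1 has the highest ratio at 0.91. The read assignment of Rn7s1 is uncertain.

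Positions are those of the deposited table, whose genome build it does not name. The 62 genes lay on 20 chromosomes, the 53 +*GFP*-silent ones on 18 and the 9 +*MK2*-silent ones on 8. Relative to the genes expressed in either line (0.582% of them members), chromosome 18 held the highest share, with 5 members of 268 (1.87%), namely *Lipg*, *Cystm1*, *Prelid2*, *Bambi* and *Synpo*. Chromosome 1 held 7 of 630 (1.11%) and chromosome 14 held 4 of 363 (1.1%). Chromosome 9 had 1 of 586 (0.171%). The median log2 ratio of +*GFP* over +*MK2* untreated was -0.26 on chromosome 1, -0.25 on chromosome 2 and -0.12 on chromosome 15, while on the other autosomes and X it was between 0.01 and 0.13, with 0.03 over all genes. Chromosomes 1, 2 and 15 together held 11 of the 53 +*GFP*-silent genes (20.8%), against 18.1% of all genes expressed in +*MK2* cells. They were unlike each other in this: chromosome 1 held 6 (11.3%, against 5.94% of expressed genes), chromosome 2 held 2 and chromosome 15 held 3. Chromosome 18 had a median of 0.05.

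Few members lay close to each other, and 4 of the 62 had another member within 1 Mb. *Fam124a* (0, 1, 69 and 61) and *Xkr6* (0, 0, 59 and 56) were 0.998 Mb apart on chromosome 14 and silent in the same line. *Fbxl16* and *Neurl1b* were 0.594 Mb apart on chromosome 17 and silent in opposite lines. The next closest pair was *Cdk15* and *Gm38137*, 1.53 Mb apart on chromosome 1.

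The expressed genes around the members were mostly alike in the 2 lines. Within 1 Mb of a member lay 883 expressed genes with a median log2 ratio of -0.02 untreated and -0.01 after IL-1α. Of these, 28 (3.17%) differed at least 2-fold in both comparisons, 20 lower and 8 higher in +*GFP* cells, against 4.32% of all expressed genes that are not members (2.56% lower and 1.76% higher). In 44 windows of at least 5 genes around +*GFP*-silent members, the window median ran from -0.52 around *Fgfr1* to 0.22 around *Nedd4*, and 20 of the 44 were below 0. Around +*MK2*-silent members, 9 windows ran from -0.49 at *Mcemp1* to 0.34 at *Gpr141*. *Mcemp1* was thus higher in +*GFP* cells within a region that was on balance lower there: *Stxbp2* and *Trappc5* on its sides had log2 ratios of -0.48 and -0.61. *Fgfr1* and *Mcemp1* both lie on chromosome 8, whose median over all its expressed genes was 0.01 untreated.

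**Figure D3:**
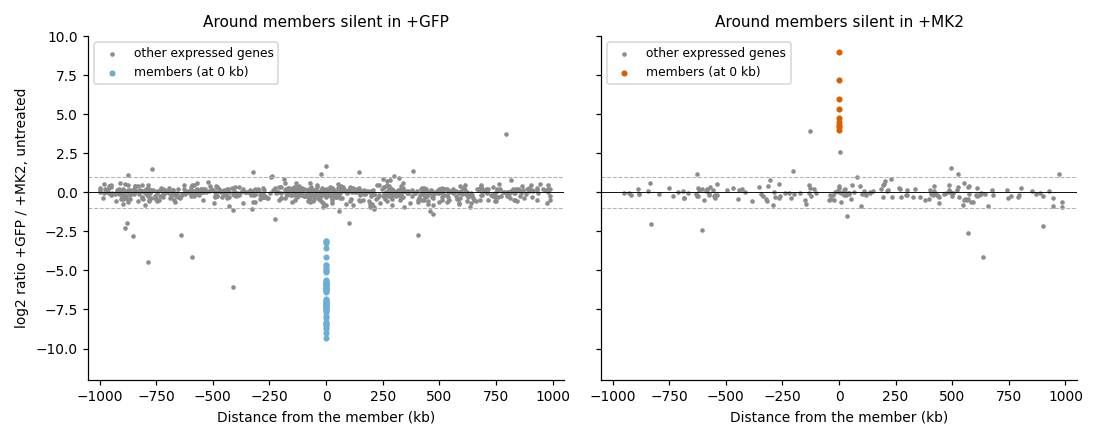
log2 ratio of +GFP over +MK2, untreated and with a pseudocount of 1 (vertical axis), of the other expressed genes within 1 Mb (grey) against their distance from a member (kb), with the members at 0 kb in colour and dashed lines at a 2-fold difference. The 883 neighbours center on a ratio near 0 with a median of -0.02, whereas the members were chosen to lie far from it.

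Counting only the nearest expressed gene on each side, 124 neighbours were found, of which 6 (4.84%) differed at least 2-fold between the lines in both comparisons, beside 4.32% of all expressed genes that are not members. In 4 of them the neighbour differed in the direction of the member and lay within 1 Mb, namely *Dmpk* beside *Dmwd*, *Tfrc* beside *Gm34680*, *Epdr1* beside *Gpr141* and *Ambp* beside *Zfp618*. *Ccl2*, a chemokine gene, was also lower in +*GFP* cells at 1216, 1773, 3868 and 3599 but lay 1214 kb from *Tmem98*, and *Mir99ahg*, 767 kb from *D16Ertd472e*, was higher in +*GFP* cells at 127, 137, 45 and 28. *Tfrc*, the transferrin receptor gene, was at 11206, 12446, 25654 and 26193 (log2 ratios -1.19 and -1.07), 55.2 kb from *Gm34680*. *Epdr1* was at 208, 201, 13 and 13 (3.90 and 3.85), 130 kb from *Gpr141*, and *Ambp* at 54, 70, 8 and 10 (2.61 and 2.69), 3.57 kb from *Zfp618*. After IL-1α the values of *Ambp* in +*GFP* cells differed by less than counting error (log2 ratio 0.37, interval -0.16 to 0.91), unlike those of *Zfp618* given above.

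A run of 3 neighbouring genes was low together in +*GFP* cells on chromosome 7. *Dmwd* (chr7:18810152-18816701), *Dmpk* (the myotonic dystrophy protein kinase, chr7:18817774-18827746) and *Six5* (a homeobox gene, chr7:18828519-18832474) follow each other on the plus strand, with 1.07 kb between the first pair. *Dmpk* was at 29 and 23 in +*GFP* cells and at 890 and 907 in +*MK2* cells, and *Six5* was at 0, 0, 47 and 51, just below the limit for a member. The genes on both sides did not share this: *Sympk*, 21.6 kb before *Dmwd*, was at 5377, 5558, 5637 and 5646, and *Fbxo46*, after *Six5*, was at 278, 342, 313 and 350. The stretch from *Dmwd* to *Six5* therefore separates from its flanks by its values in the +*GFP* libraries.

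**Figure D4:**
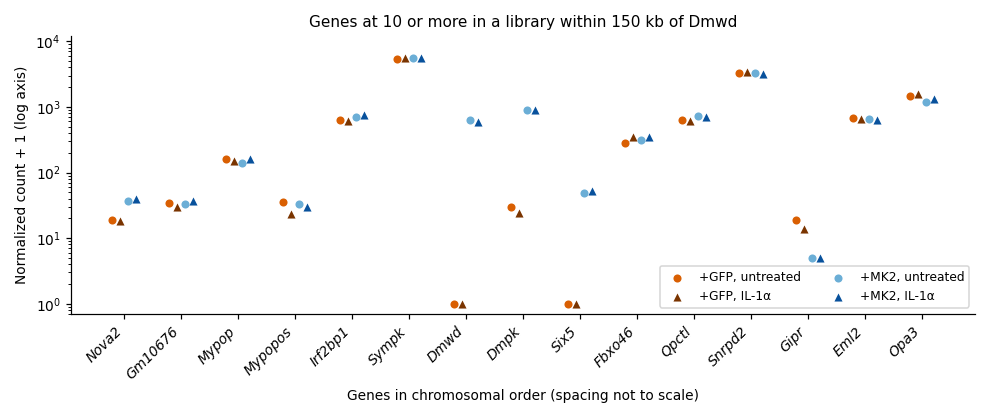
Normalized count plus 1 (log axis) in the 4 libraries for genes that reach 10 or more in a library within 150 kb of Dmwd, in chromosomal order with spacing not to scale. Dmwd, Dmpk and Six5 are the adjacent genes with low values in both +GFP libraries (0 and 0, 29 and 23, 0 and 0), between Sympk and Fbxo46, whose 4 values lie close together.

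Low-level neighbours showed the same in a few places. *Matn2*, 22.4 kb after *Laptm4b*, was at 0, 0, 26 and 26, *Cd2*, 89.1 kb before *Igsf3*, at 0, 0, 20 and 10, and *Aif1l*, right after *Lamc3*, at 0, 0, 16 and 9. Other low-level neighbours did not follow the member. *4933421O10Rik* beside *Rragd* was at 37, 36, 36 and 36, and *Fcor* beside *Mcemp1* at 30, 49, 27 and 36. *Gipr*, near *Dmwd*, went the other way at 18, 13, 4 and 4. Values of this size rest on few reads. Further members overlap another gene: *Igf2bp3* overlaps *Malsu1* (346, 347, 387 and 365), *Lrfn1* overlaps *Samd4b* (1857, 2103, 1609 and 1710), *Ggt7* overlaps *Acss2* (390, 325, 289 and 311) and *Rab44* contains *Rpl35a-ps3* (0, 0, 205 and 186), a pseudogene left out by its name. In the first 3 cases the overlapping gene had a like level in both lines. The labels describe a stranded kit, but whether counting used strand is not given in the sources used here.

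The +*GFP*-silent genes covered long stretches of the genome. Their median genome span was 60.6 kb against 22.7 kb for all genes expressed in +*MK2* cells, and 16 of the 53 (30.2%) spanned more than 100 kb against 11.01% of all. The median exon length was 5173 bases against 4462. The compared genes were at higher levels, with a median of 1026 normalized counts against 145.5. Span and length were not compared at a like level. The +*MK2*-silent genes had a median span of 31.5 kb against 22.8 kb, with 1 of 9 above 100 kb. Of the 53 genes, 51 were protein-coding, and so were 8 of the 9.

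Promoter windows from RefSeq (build GRCm38.p6, 250 bases before to 50 bases after a transcript start, positions not comparable with those of the table above) were found for 44 of the 62 genes, 64 windows in all. CpG dinucleotides, the sites of DNA methylation in mammals, are depleted in most of the genome and kept in CpG islands, at which most promoters of broadly expressed genes lie. The following 6 windows are shown because they cover CpG-poor and CpG-rich promoters, include the 2 highest +*GFP*-silent genes with a window (*Igf2bp3* and *Dmwd*), and give both kinds for the +*MK2*-silent genes. They are printed 5′ to 3′ on the strand of the gene, with each CG in capitals, and cover the region upstream of the gene and the first bases of the transcript. The positions are chr6:49214905-49215204 (minus strand) for *Igf2bp3*, chr7:19075950-19076249 (plus) for *Dmwd*, chr10:34483150-34483449 (plus) for *Frk*, chr4:62965317-62965616 (plus) for *Zfp618*, chr13:19824208-19824507 (minus) for *Gpr141* and chr2:164356458-164356757 (minus) for *Slpi*.
Igf2bp3: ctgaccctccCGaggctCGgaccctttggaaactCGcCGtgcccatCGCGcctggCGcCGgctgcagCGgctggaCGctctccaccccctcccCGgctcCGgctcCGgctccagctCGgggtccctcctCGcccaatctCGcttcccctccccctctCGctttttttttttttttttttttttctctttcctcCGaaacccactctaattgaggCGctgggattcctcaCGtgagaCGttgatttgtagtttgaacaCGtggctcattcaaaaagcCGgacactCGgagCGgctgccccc
Dmwd: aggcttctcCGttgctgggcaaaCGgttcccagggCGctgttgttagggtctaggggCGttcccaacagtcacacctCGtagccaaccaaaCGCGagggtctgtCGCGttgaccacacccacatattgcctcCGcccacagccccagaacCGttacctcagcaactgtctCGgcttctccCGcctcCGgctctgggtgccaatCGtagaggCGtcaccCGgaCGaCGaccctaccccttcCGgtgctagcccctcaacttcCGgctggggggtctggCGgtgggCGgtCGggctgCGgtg
Frk: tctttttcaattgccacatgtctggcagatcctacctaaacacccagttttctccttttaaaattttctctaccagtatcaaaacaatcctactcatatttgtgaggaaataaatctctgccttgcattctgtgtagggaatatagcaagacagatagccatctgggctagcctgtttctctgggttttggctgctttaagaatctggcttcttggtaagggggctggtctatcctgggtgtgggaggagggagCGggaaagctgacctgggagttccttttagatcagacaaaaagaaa
Zfp618: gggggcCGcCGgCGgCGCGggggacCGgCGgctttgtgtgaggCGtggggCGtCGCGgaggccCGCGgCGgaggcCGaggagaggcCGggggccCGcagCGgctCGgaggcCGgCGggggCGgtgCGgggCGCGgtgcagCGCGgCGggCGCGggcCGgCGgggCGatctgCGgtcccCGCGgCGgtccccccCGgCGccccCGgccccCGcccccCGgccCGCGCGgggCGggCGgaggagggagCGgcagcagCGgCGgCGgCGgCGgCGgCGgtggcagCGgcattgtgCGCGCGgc
Gpr141: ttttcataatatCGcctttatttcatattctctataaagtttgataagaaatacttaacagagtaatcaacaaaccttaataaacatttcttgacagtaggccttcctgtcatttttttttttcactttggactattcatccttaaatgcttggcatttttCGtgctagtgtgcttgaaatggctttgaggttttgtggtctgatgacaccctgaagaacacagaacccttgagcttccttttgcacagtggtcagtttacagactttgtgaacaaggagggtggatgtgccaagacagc
Slpi: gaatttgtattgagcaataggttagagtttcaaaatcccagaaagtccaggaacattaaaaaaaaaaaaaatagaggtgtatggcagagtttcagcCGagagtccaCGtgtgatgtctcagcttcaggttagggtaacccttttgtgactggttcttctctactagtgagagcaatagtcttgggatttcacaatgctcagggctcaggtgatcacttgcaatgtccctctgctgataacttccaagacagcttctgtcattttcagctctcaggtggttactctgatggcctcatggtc

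The window of *Igf2bp3* held 25 CG with an observed over expected CpG ratio of 0.98, and that of *Dmwd* also 25 with a ratio of 0.80. The window of *Frk* held 1, a ratio of 0.07. In *Zfp618* there were 59, a ratio of 1.06, whereas *Gpr141* and *Slpi* had 2 each, with ratios of 0.19 and 0.14. Genes of very different CpG content were thus silent in the same line. Among the windows of +*GFP*-silent genes, 30 of 56 (53.6%) had a ratio of 0.6 or more, and the median ratio was 0.62. For all genes expressed in +*MK2* cells these were 73.6% and 0.78. Of the 8 windows of +*MK2*-silent genes, 2 (25%) reached 0.6, those of *Zfp618* and *Neurl1b*, with a median of 0.22, against 73.8% of windows and 0.78 of genes expressed in +*GFP* cells. The 56 windows came from 37 genes, against 10443 windows from 8186 genes expressed in +*MK2* cells. Genes with several windows thus weigh more in the set. *Sgms2* and *Chn2* each gave several, most of them below 0.6. Shares were not compared by gene or at a like expression level. Windows of one gene can overlap and are not independent, and no test was made.

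**Figure D5:**
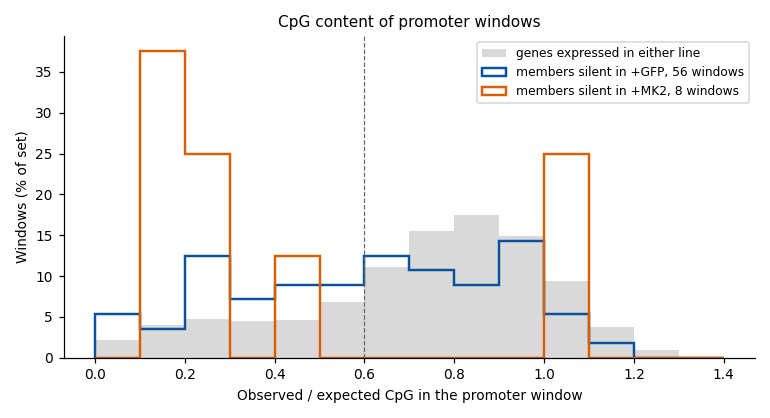
Share of promoter windows (% of each set) by observed over expected CpG ratio, for genes expressed in either line (grey), 56 windows of +GFP-silent genes (blue) and 8 windows of +MK2-silent genes (orange), with a dashed line at 0.6. The +GFP-silent windows include CpG-poor and CpG-rich ones, with 53.6% at 0.6 or more, and 2 of the 8 +MK2-silent windows lie above the line.

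Short motifs were searched as exact letters on both strands of the windows. The AP-1 motif TGANTCA, which basic leucine zipper factors such as Fos and Jun bind, was in 6 of the 56 windows of +*GFP*-silent genes (10.7%), against 4.81% for all genes expressed in +*MK2* cells and 7.81% of all RefSeq windows. It occurred in 2 windows of *Sgms2* and in 1 each of *Nedd4*, *Tiam1*, *Cdk15* and *Sgsm1*, and in the window of *Mcemp1* on the other side. The E-box CACGTG was in 10.7% against 10.5%, TATAAA in 5.36% against 6.66%, the cAMP response element TGACGTCA in 3.57% against 3.27% and the PU.1 motif GAGGAAGT, of the macrophage factor encoded by *Spi1*, in 1.79% against 3.33%. The NF-κB motif (GGGA, any base, then TTTCC) was in 0 of the 56 against 0.421%. The counts are small throughout, and a shift of a few windows changes each of these shares.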

How the data were processed

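RNA-seq was analysed for 4 libraries, 1 per condition, so no replicate test was possible and no p-value is given. The deposited table holds a whole-number score for each gene in each library, which the authors describe as a count normalized with DESeq2. The column headers carry the output name of salmon, the submitters' processing notes name DESeq2 and GRCm38, and versions, size factors and annotation are not given in the sources used here. The positions of the table equalled those of GENCODE M21 (GRCm38) for 1494 of 52080 shared gene identifiers (2.87%), so its build is not taken as GRCm38. The labels give poly(A) selection with a stranded kit, the paper's methods ribo-depletion, and which was used could not be settled.

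Values were used as deposited. The values of 1 member, which is among the 30 highest +*GFP*-silent genes, are not reported here, although it is included in the counts. The genes, the gene lists, the function groups and the families were chosen with earlier results of these data known, groups and families after the names were seen. Ratios are log2 with a pseudocount of 1. "Expressed" means 50 or more in both libraries of a line, and a gene was called different between the lines at 2-fold or more in the same direction untreated and after IL-1α. Counting intervals are exact Clopper-Pearson 95% intervals with 1 normalized count taken as 1 read, and cover counting error only, since reads carried no molecular identifiers. With that exception, all 4 values are given for the 30 highest +*GFP*-silent genes, all +*MK2*-silent genes, genes within 1 Mb of another member, those at least 2-fold different after IL-1α, those next to a limit, named relatives and called neighbours. A few low-level or overlapping neighbours, the copies *Rn7s2*, *Rn7sk* and *Bambi-ps1*, and the flanks of *Dmwd* were named after their values were seen. Exon lengths (GENCODE M21) were matched by gene identifier and were found for all members but *Rn7s1*. Promoters and motifs were read from RefSeq (GRCm38.p6). Gene lists were cell type markers, imprinted genes, silencing machinery, sex chromosome genes, Hox genes and Zfp genes. The calculations were made with python 3.11.15, pandas 2.3.3, numpy 2.4.6 and scipy 1.17.1, and were tested on simulated data. Alternatives were other limits, scalings, pseudocounts, distances, reads per count and CpG ratios.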

Additional observations from a re-analysis of the deposited data

How the results depend on the processing

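No paired analysis was possible because each condition had 1 library and the labels give no shared replicate numbers. The number of +*GFP*-silent genes was 53 and became 80 and 33 with a limit for expressed genes of 25 and 100. It stayed within 1.5 times of 53 with a silent limit of 2 (39) or 10 (67) and under 3 other scalings (48 to 53). The 9 +*MK2*-silent genes became 3 and 17 with silent limits of 2 and 10, 15 and 3 with expressed limits of 25 and 100, and between 6 and 7 under the 3 other scalings. Members with another member within the chosen distance numbered 4 at 1 Mb, 0 at 0.25 Mb and 17 at 5 Mb. Members with a called neighbour numbered 6, 10 with neighbours counted from 10 normalized counts on, and 22 with any expressed gene within 1 Mb, an alternative chosen after seeing the data. These shifts follow from wider or narrower limits. A window of 1 Mb can hold many genes, such as 53 around *Fbxl16*. Of the expressed genes within 1 Mb of a member, 3.17% were called, against 4.32% of all expressed genes that are not members. The share of other expressed genes with a called neighbour was not counted. No share of called genes is given for all genes from 10 normalized counts on, and some neighbours at that limit rest on few reads. In the last 150 bases of the windows, 2 +*GFP*-silent windows held AP-1 (6 in the whole window) and 0 held TATAAA (3). The shares there were 3.57% against 2.3% of the windows of genes expressed in +*MK2* cells for AP-1 and 0% against 2.85% for TATAAA. The counts of genes 2-fold different or beyond counting error after IL-1α stayed within 1.5 times of the reported ones under every alternative run. With 1 library per condition, differences between cultures cannot be separated from those between lines.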

Other observations

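Genes known for gene silencing and for expression that depends on the cell's history were looked at beside the set. Of 20 genes of the silencing machinery (DNA methyltransferases, Polycomb proteins, histone deacetylases and their opponents), 19 were expressed and 0 differed at least 2-fold between the lines in both comparisons, against 4.87% of all expressed genes. The list did not hold the members *Kdm5b*, *Bahcc1* and *Sfmbt2*, chromatin genes that were silent in +*GFP* cells as given above. *Dnmt3a* and *Dnmt3b*, the methyltransferases that place new CpG methylation, were at 5259, 5172, 7650 and 8110 and at 148, 174, 244 and 236 (+*GFP* untreated and with IL-1α, then +*MK2* likewise), log2 ratios untreated of -0.54 and -0.72. *Tet2*, which starts the removal of CpG methylation, was at 936, 1679, 772 and 657, and *Kdm6b*, which removes a Polycomb mark, at 335, 909, 265 and 288. Both were higher after than before IL-1α in +*GFP* cells.

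Of 16 imprinted genes, 2 were expressed (*Impact* and *Zrsr1*), 10 were at 0 in all libraries and none was a member or differed 2-fold. *Xist* was the expressed one of 5 sex chromosome genes, between 19115 and 20802 in all libraries, while the 4 Y-linked genes were at 0. Of 45 Hox genes, 2 were expressed, and 1 of these, *Hoxb4*, differed at least 2-fold, at 19, 29, 128 and 127. Of 428 Zfp genes, 286 were expressed and 8 of these (2.8%) differed at least 2-fold in both comparisons, 5 lower and 3 higher in +*GFP* cells, a share below the 4.87% of all expressed genes, and *Zfp618* was the member among them.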
